A study of Homo sapiens with 15 samples.

Results

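The genes that take a cell from G1 into S phase and copy its DNA were followed in 2 human lines. CAL51 is an established triple-negative breast cancer line, and CALDOX is its doxorubicin-resistant derivative. The list held 48 of the 19775 genes measured. Its members were chosen by name for their function, with no threshold on a measured value but with earlier results of these data known. Each gene was read from the probe set with the highest mean intensity on the 15 arrays, among those that the platform annotation assigns to that gene alone. All 48 genes were found. They had 91 such probe sets in all, and 20 of the genes had only 1. Another 4 probe sets were left out because they name PRIM2 together with a pseudogene.

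Doxorubicin is an anthracycline that poisons topoisomerase II and breaks DNA. RNA from 5 groups of cells was hybridized, with 3 biological samples and so 3 arrays in each. The groups were untreated CAL51, CAL51 kept for 24 h in 0.4 µM doxorubicin, CAL51 kept for 48 h in the same dose, untreated CALDOX, and CALDOX given 4 µM doxorubicin for 24 h. CALDOX arose by prolonged culture in 0.4 µM doxorubicin and is routinely kept in the drug. The treated CALDOX cells had first spent 3 passages without it, and the labels do not say whether the untreated CALDOX cultures were drug-free or whether the line is 1 clone. The doses differed between the lines, so line and dose cannot be told apart in any comparison of their responses.

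In G1, the origin recognition complex, CDC6 and CDT1 load rings of the MCM2 to MCM7 helicase onto DNA. At the start of S phase, kinases that include cyclin E with CDK2 cause CDC45 and the GINS complex to join the rings, and primase, the replicative polymerases, the PCNA clamp and the enzymes of nucleotide supply then copy the strands. Most of these genes are transcribed in late G1 by E2F factors, which the retinoblastoma family holds in check, and the p53 target p21, made by CDKN1A, keeps cyclin-dependent kinases inactive after DNA damage.

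Values are RMA intensities on the log2 scale, so a change of -1 is a 2-fold fall. Changes are log2 differences, most with ± standard error, from a limma model fitted to all genes, with 3 arrays in each group. Some are given as a percent of intensity. Changes of dimmer probe sets come from the same model fitted to all probe sets that name 1 gene. A gene is called changed at a Benjamini-Hochberg adjusted p under 0.05 over all 19775 genes. The mean level of the members ran from 8.23 (ORC1), at the 59th percentile of all genes, to 13.47 (TYMS), at the 99.6th. The treatment labels were checked on 2 genes that p53 induces. In CAL51 CDKN1A rose by 1.98 ± 0.07 at 24 h (limma adjusted p = 6.6e-11) and MDM2 by 1.26 ± 0.09 (adjusted p = 2.8e-07). In CALDOX the same genes, at the other dose, rose by 1.11 ± 0.07 (adjusted p = 1.3e-07) and 0.64 ± 0.09 (adjusted p = 0.00031). Arrays of a group correlated at 0.9929 to 0.9978 over all probe sets. Of the epithelial markers, KRT8, KRT18 and EPCAM lay at the 98th percentile or above in mean intensity. Of the receptor genes, PGR lay at the 18.6th, ESR1 at the 61.2nd and ERBB2 at the 85.7th. KRT19, an epithelial keratin, averaged 6.59 in untreated CAL51 and 11.35 in untreated CALDOX. CDH1, E-cadherin, lay at the 40.7th percentile and averaged 7.34 and 5.99 in these groups. KRT8 (12.55 and 12.07) and KRT18 (14.11 and 13.63) were also lower in CALDOX. Intensities of all 5 epithelial markers together summed to between 52.3 and 52.6 on untreated CAL51 arrays, 57.0 to 58.0 at 48 h and 55.1 to 55.5 in untreated CALDOX, where KRT19 makes up the higher sum. Those of 6 fibroblast markers summed to between 47.2 and 47.8, 47.6 and 48.2, and 44.4 and 44.8, with the collagen gene COL1A2 at the 96.4th percentile and LUM, another fibroblast marker, at the 1.4th. The 4 blood markers and 4 endothelial markers measured stayed within 1 unit of summed intensity of their untreated CAL51 range in every group. RMA gives no zeros, so no marker can be called absent, and the part of these shifts in the results was not tested.

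In doxorubicin-treated CAL51 the list was lower, by a small amount at 24 h and by a larger one at 48 h. At 24 h 20 of the 48 genes fell and 2 rose, beside 4.34% of all genes lower and 5.77% higher, and the median change was -0.20, or -13.2% in intensity, against -0.03 for all genes. At 48 h 44 fell and 1 rose, beside 11.2% of all genes lower and 10.5% higher, and the median was -0.57, or -32.4%, against -0.02. Over the second day alone 35 fell and 0 rose with limma (0 also at an unadjusted p under 0.05), beside 5.34% lower and 4.37% higher, with a median of -0.34 against 0.01. The 24 h and 48 h comparisons share the untreated arrays, and the second-day comparison shares the treated ones. Array by array, all 3 treated arrays lay below all 3 untreated ones for 26 members at 24 h (12.7% of all genes) and for 45 at 48 h (18.6%). The 48 h arrays lay below the 24 h arrays for 38 members (11.4%). Group means stepped down from untreated to 24 h to 48 h for 42 members, a count that was not made over all genes. The others were CCNE1, GINS4, LIG1, ORC6, PCNA and TYMS. The falls were modest: 23 members were at least 1.5-fold lower at 48 h and only CCNE2 at least 2-fold. In bulk RNA, fewer cells in S phase and less of each transcript per cell cannot be told apart.

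The 24 h count is the less firm. It was 13 lower without CAL51 24 h replicate 1, 7 lower when only the compared groups were fitted, and 33 lower with the interquartile range of each array as a covariate. Over all genes the share of calls that were higher was 57.1%, 69% and 43.2% in the fit as reported, with only the compared groups and with that covariate. Of the calls at 24 h, 7 of 22 were kept under every one of 25 other settings, and at 48 h 40 of 45.

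**Figure D1:**
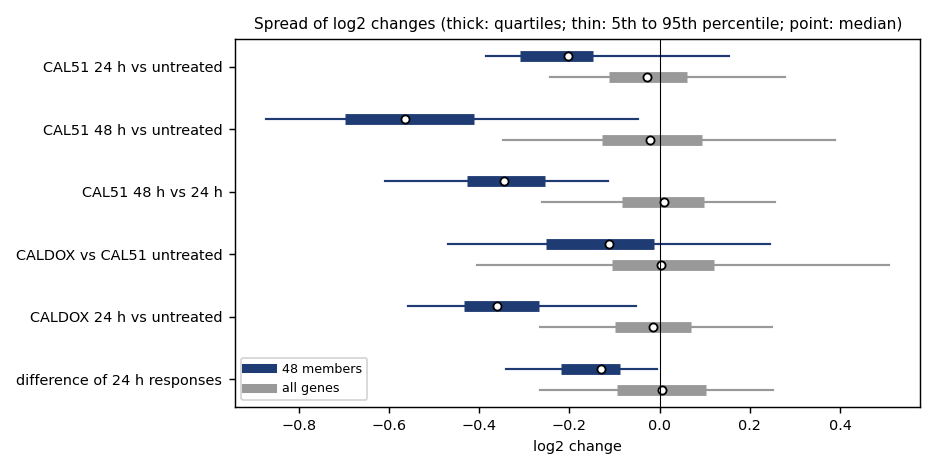
Log2 change of the 48 members (blue) and of all 19775 genes (grey) in each of 6 comparisons; the horizontal axis is the log2 change, the thick bar spans the quartiles, the thin line the 5th to 95th percentile, and the point is the median. The members' medians lie at -0.20, -0.57 and -0.34 for the 3 CAL51 treatment comparisons and at -0.36 for treated CALDOX, where those of all genes lie between -0.03 and 0.01.

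In CALDOX the list was lower after 24 h of the higher dose as well. With limma, 36 of the 48 genes fell and 0 rose (1 was higher at an unadjusted p under 0.05), beside 5.5% of all genes lower and 4.82% higher. The median was -0.36, or -22.1%, against -0.01 for all genes. All 3 treated arrays lay below all 3 untreated ones for 44 members (17.1% of all genes). CCNE1 was the 1 member with a positive change, and at an adjusted p of 0.05 it did not pass the threshold. It passed under 7 of 25 other settings, 1 of them without CAL51 24 h replicate 2.

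The untreated lines differed in both directions. In CALDOX 17 members were lower and 4 higher than in CAL51, beside 11.7% and 14.2% of all genes, with a median of -0.11 against 0.00. The count of lower genes was 11 without CALDOX replicate 1. The CALDOX arrays lay below all CAL51 arrays for 19 members (17.5% of all genes). This comparison and both CAL51 treatment comparisons share the untreated CAL51 arrays.

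**Figure D2:**
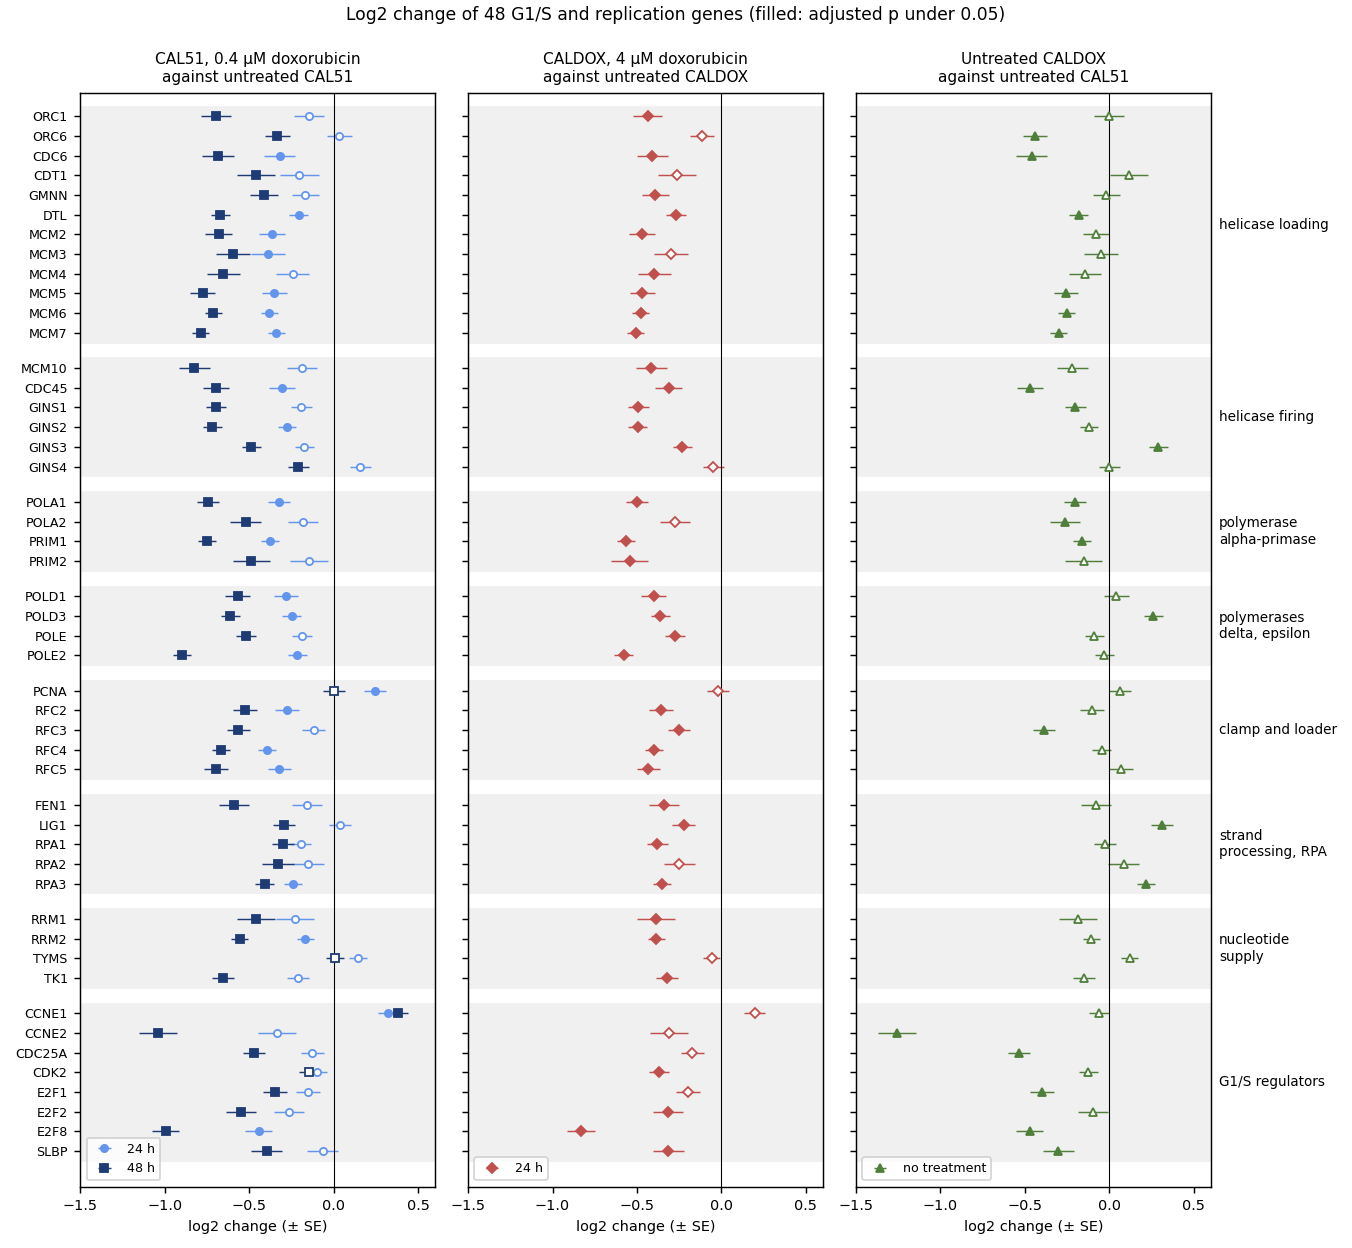
Log2 change with its limma standard error for each of the 48 genes, grouped by role; the left panel shows CAL51 at 24 h and 48 h, the middle one CALDOX at 24 h, and the right one untreated CALDOX against untreated CAL51, with filled symbols for adjusted p under 0.05. At 48 h all symbols but those of PCNA, TYMS and CCNE1 lie left of 0, and in the right panel CCNE2 at -1.26 is the lowest.

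Promoters were read because the list is known as a set of E2F targets, and because PCNA, TYMS and CCNE1 did not move with the rest. RefSeq's table for GRCh38.p14 held 39 of the 48 genes. It did not list MCM4, MCM5, GINS4, POLD3, RPA2, RPA3, CCNE2, CDK2 and E2F8. In the 250 bases before each annotated start, E2F letters were searched on both strands as TTTCGCGC, TTTGGCGC, TTTCCCGC or TTTGCCGC. They stood before 16 of 39 members (41.0%), 2.79% of all 27303 promoters and 3.64% of the 15383 promoters of measured genes. The letters CCAAT, the box bound by NF-Y, stood before 21 members (53.8%), 33.0% of all promoters and 34.1% of those of measured genes. The cell-cycle homology letters TTTGAA or TTCGAA, known from G2 genes, stood before 2 members (5.13%), 14.6% of all promoters and 11.8% of those of measured genes. The members' windows were 65.2% G and C at the median, those of measured genes 62.4% and all promoters 58.0%, and the motifs' shares were not adjusted for that. Within the list, the median change at 48 h was -0.53 for the 16 with E2F letters and -0.59 for the 23 without. It was -0.68 for the 21 with CCAAT and -0.52 for the 18 without, and neither split was tested.

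The sequences below are the 200 bases before the annotated start on the gene's own strand, written 5′ to 3′, with E2F letters of either strand in capitals. They were picked after the values were seen. MCM6 (chr2:135876444-135876643, minus strand) and MCM7 (chr7:100101398-100101597, minus strand) are helicase genes that fell, and E2F1 (chr20:33686386-33686585, minus strand) is a regulator that fell. They do not represent the list, since every other member searched has at most 1 match and 23 of 39 have none. POLE2 (-0.90) and MCM10 (-0.825) fell further at 48 h and have no match. PCNA (chr20:5126623-5126822, minus strand), TYMS (chr18:657453-657652, plus strand) and CCNE1 (chr19:29811791-29811990, plus strand) are members that did not fall at 48 h.
MCM6: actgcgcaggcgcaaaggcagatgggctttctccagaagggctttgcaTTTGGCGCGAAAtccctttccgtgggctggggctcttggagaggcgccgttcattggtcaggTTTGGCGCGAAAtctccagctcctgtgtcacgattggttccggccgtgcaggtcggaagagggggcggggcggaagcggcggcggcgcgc
MCM7: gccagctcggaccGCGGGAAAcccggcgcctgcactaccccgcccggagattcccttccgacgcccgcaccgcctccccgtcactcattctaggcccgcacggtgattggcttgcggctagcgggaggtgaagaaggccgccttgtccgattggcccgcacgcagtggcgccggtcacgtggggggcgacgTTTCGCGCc
E2F1: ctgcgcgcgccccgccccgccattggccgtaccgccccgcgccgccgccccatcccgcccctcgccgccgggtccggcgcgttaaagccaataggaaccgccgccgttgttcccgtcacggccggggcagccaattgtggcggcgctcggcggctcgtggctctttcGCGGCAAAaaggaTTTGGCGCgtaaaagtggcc
PCNA: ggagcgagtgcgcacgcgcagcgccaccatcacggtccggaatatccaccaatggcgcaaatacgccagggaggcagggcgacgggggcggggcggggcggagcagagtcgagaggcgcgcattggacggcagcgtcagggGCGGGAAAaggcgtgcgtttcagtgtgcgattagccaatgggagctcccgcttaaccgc
TYMS: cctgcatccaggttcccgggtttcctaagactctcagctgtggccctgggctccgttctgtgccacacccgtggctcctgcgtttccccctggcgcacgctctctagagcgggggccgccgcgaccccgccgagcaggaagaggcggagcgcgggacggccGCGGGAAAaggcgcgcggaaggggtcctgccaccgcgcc
CCNE1: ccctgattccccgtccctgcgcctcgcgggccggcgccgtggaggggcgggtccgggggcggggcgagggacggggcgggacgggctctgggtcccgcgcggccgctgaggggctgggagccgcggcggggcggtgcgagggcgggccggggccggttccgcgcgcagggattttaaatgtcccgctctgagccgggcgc
MCM6 has 4 matches in 2 overlapping pairs, each a forward match that shares bases with a reverse one. MCM7 and E2F1 have 2 each, PCNA and TYMS 1 each, and CCNE1 has none in this window. PCNA and TYMS, which did not fall at 48 h, carry GCGGGAAA, which is also 1 of the matches of MCM7, which did. The matches of MCM6 are other letters of the searched set. A match of letters describes the sequence and says nothing of binding.

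**Figure D3:**
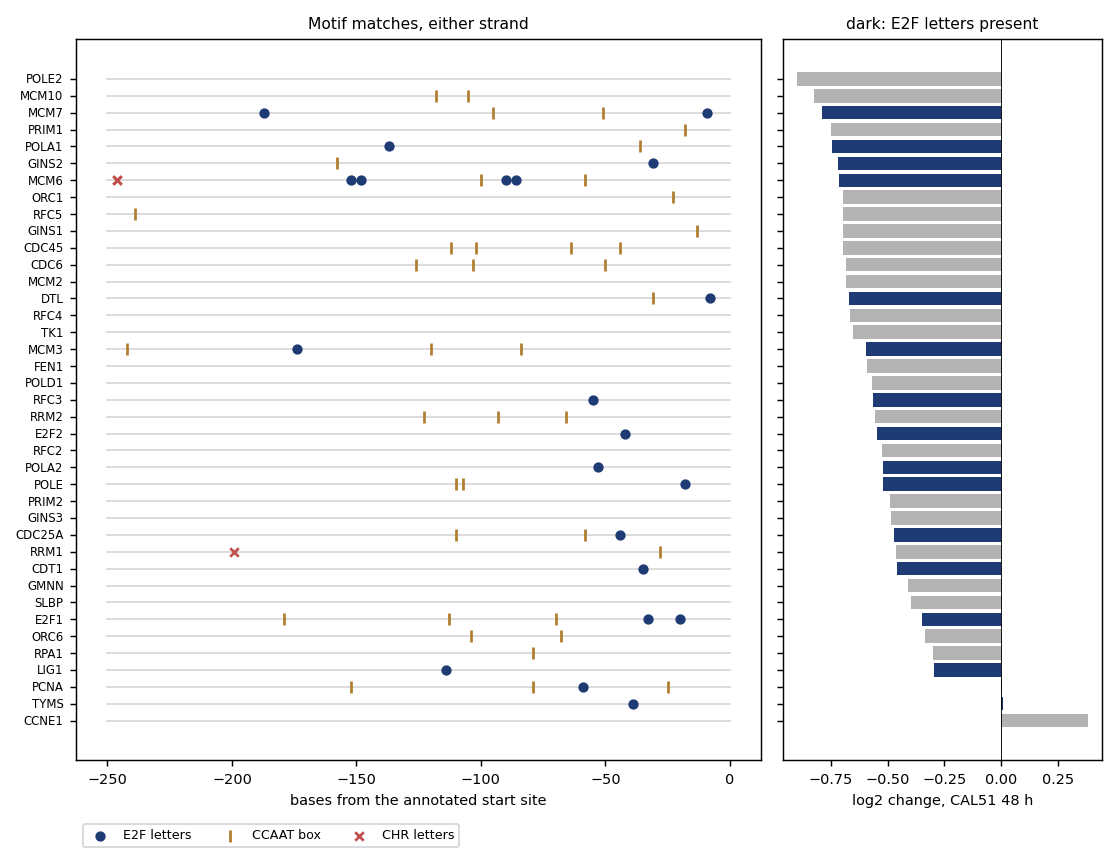
Positions of the searched letters before the annotated start of 39 members, ordered by their change in CAL51 at 48 h, which the bars at right give on the log2 scale; the horizontal axis at left is the distance in bases from the start site. The dark bars, genes with E2F letters, are spread from MCM7 at -0.79 to TYMS at 0.01.

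Members grouped under helicase loading fell in full at 48 h. All 12 (ORC1, ORC6, CDC6, CDT1, GMNN, DTL and MCM2 to MCM7) passed the test, with a median of -0.68, after 7 of 12 at 24 h. GMNN and DTL act on CDT1 and do not load the helicase themselves. The other subunits of the origin recognition complex are not members. Beside this role and each one below, 11.2% of all genes were lower at 48 h, 4.34% at 24 h and 5.5% in treated CALDOX. MCM7, a subunit of the replicative helicase, read 11.65, 11.65 and 11.66 on the untreated CAL51 arrays, 11.26, 11.30 and 11.37 at 24 h, 10.86, 10.85 and 10.88 at 48 h, 11.32, 11.38 and 11.36 in untreated CALDOX and 10.82, 10.86 and 10.85 in treated CALDOX. The values fall into 3 tiers, with untreated CAL51 on top, CAL51 at 24 h overlapping untreated CALDOX in the middle, and CAL51 at 48 h overlapping treated CALDOX at the bottom. MCM7 changed by -0.34 ± 0.05 at 24 h (limma adjusted p = 0.00038), -0.79 ± 0.05 at 48 h (adjusted p = 2.3e-08) and -0.51 ± 0.05 in CALDOX (adjusted p = 8.4e-06). MCM5, a neighbouring subunit of the ring, read 10.37, 10.33 and 10.33 untreated, 9.99, 9.91 and 10.09 at 24 h and 9.56, 9.52 and 9.63 at 48 h, so the 3 CAL51 groups did not overlap. In CALDOX it read 9.94, 10.24 and 10.09 on untreated arrays and 9.65, 9.63 and 9.59 on treated ones, again without overlap. Its changes were -0.35 ± 0.07 at 24 h, -0.78 ± 0.07 at 48 h (limma adjusted p = 1e-06) and -0.47 ± 0.07 in CALDOX (adjusted p = 0.00044).

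The 6 helicase subunits moved within a narrow band at 48 h, from -0.60 (MCM3) to -0.79 (MCM7). MCM6, whose promoter is printed with MCM7's, changed by -0.38 ± 0.05 at 24 h (limma adjusted p = 0.00012) and -0.71 ± 0.05 at 48 h (adjusted p = 6e-08). MCM2 fell by 37.6% in intensity at 48 h and MCM4 fell by 36.4%. The loaders CDC6 (-0.68 ± 0.09) and ORC1 (-0.70 ± 0.09), the largest subunit of the origin recognition complex, fell by similar amounts. DTL, a part of the ubiquitin ligase that destroys CDT1 in S phase, fell at 24 h (-0.21 ± 0.06) and further by 48 h (-0.67 ± 0.06).

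Members at the other end of this group fell late and less. ORC6, the smallest subunit of the complex, read 9.49, 9.39 and 9.39 untreated, 9.45, 9.34 and 9.57 at 24 h and 9.03, 9.05 and 9.19 at 48 h. The untreated and 24 h arrays overlap and the 48 h arrays lie below both, a change of -0.33 ± 0.07 (limma adjusted p = 0.003). In CALDOX it read 8.93, 9.01 and 9.00 on untreated arrays and 8.79, 8.98 and 8.83 on treated ones. Untreated CALDOX thus lay below every untreated CAL51 array (-0.44 ± 0.07, limma adjusted p = 0.00019), while drug changed it by -0.11 ± 0.07 (adjusted p = 0.43), which did not pass.

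CDT1 and its inhibitor geminin, GMNN, were both lower at 48 h. CDT1 brings the helicase to origins, and read 9.71, 10.01 and 9.79 untreated, 9.57, 9.88 and 9.46 at 24 h and 9.25, 9.58 and 9.31 at 48 h. The arrays of each group are widely spread, and only the 48 h values lie wholly below the untreated ones, by -0.46 ± 0.11 (limma adjusted p = 0.0073). In CALDOX it read 10.02, 9.97 and 9.87 and then 9.72, 9.56 and 9.80 with drug, a change of -0.26 ± 0.11 that did not pass (adjusted p = 0.19). GMNN, which keeps CDT1 from loading the helicase again, read 11.39, 11.19 and 11.33 untreated, 11.25, 10.95 and 11.21 at 24 h and 10.86, 10.82 and 11.00 at 48 h. The 24 h arrays overlap both other groups, and the 48 h arrays lie below the untreated ones (-0.41 ± 0.08, limma adjusted p = 0.0014). The untreated CALDOX arrays read 11.25, 11.35 and 11.26 and the treated ones 10.94, 10.84 and 10.91, with no overlap (-0.39 ± 0.08, adjusted p = 0.0047). The dimmer probe set of CDT1 gave -0.65 at 48 h.

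Members that fire the loaded helicase fell in full at 48 h too. All 6 (MCM10, CDC45 and GINS1 to GINS4) passed, with a median of -0.70, after 2 of 6 at 24 h. MCM10, which helps the assembled helicase to start, read 9.94, 9.62 and 9.81 untreated, 9.69, 9.42 and 9.70 at 24 h, 8.96, 8.89 and 9.03 at 48 h, 9.46, 9.65 and 9.61 in untreated CALDOX and 9.10, 9.14 and 9.23 in treated CALDOX. The 24 h arrays overlap the untreated ones and the 48 h arrays are the lowest of all 5 groups. Its 24 h change of -0.19 ± 0.09 did not pass (limma adjusted p = 0.25), and its fall in the second day alone was -0.64 ± 0.09 (adjusted p = 0.00045). GINS2, a subunit of the GINS complex, read 10.89, 10.85 and 10.85 untreated, 10.56, 10.56 and 10.64 at 24 h, 10.14, 10.09 and 10.20 at 48 h, 10.74, 10.79 and 10.70 in untreated CALDOX and 10.25, 10.30 and 10.19 in treated CALDOX. The 3 CAL51 groups are well apart, with changes of -0.28 ± 0.06 (limma adjusted p = 0.0041) and -0.72 ± 0.06 (adjusted p = 1.4e-07). Its 2 dimmer probe sets, at mean intensities of 7.13 and 5.93, gave -0.05 and -0.15 at 48 h, and the call was lost when the probe set of median change stood for the gene.

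GINS4, another subunit of that complex, went a different way at 24 h. It read 9.04, 9.16 and 9.02 untreated, 9.22, 9.17 and 9.30 at 24 h and 8.84, 8.88 and 8.87 at 48 h. Every 24 h array lay above every untreated one, yet the change of 0.16 ± 0.06 did not pass (limma adjusted p = 0.14). At 48 h it was -0.21 ± 0.06 (adjusted p = 0.024), the smallest fall called among the 48 genes. The call was lost without untreated CAL51 replicate 2, without CAL51 48 h replicate 1 or 3, and when its dimmer probe sets entered or only the compared groups were fitted. The CALDOX arrays, 9.09, 9.15 and 8.98 untreated and 8.97, 9.06 and 9.04 treated, overlapped. CDC45 (-0.70 ± 0.08) and GINS1 (-0.70 ± 0.06) fell by about as much as GINS2 at 48 h, and GINS3 by less (-0.49 ± 0.06). In CALDOX all but GINS4 fell, from -0.23 (GINS3) to -0.50 (GINS2).

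Polymerase alpha and primase, which lay down the first stretch of RNA and DNA of each new strand, fell in full at 48 h. All 4 genes passed, with a median of -0.63, after PRIM1 and POLA1 at 24 h. PRIM1, the catalytic subunit of primase, read 10.14, 10.07 and 10.07 untreated, 9.70, 9.73 and 9.72 at 24 h, 9.32, 9.36 and 9.35 at 48 h, 9.88, 9.98 and 9.94 in untreated CALDOX and 9.33, 9.35 and 9.43 in treated CALDOX. No 2 CAL51 groups overlap, and treated CALDOX lies at the level of CAL51 at 48 h. It changed by -0.38 ± 0.05 (limma adjusted p = 2e-04), -0.75 ± 0.05 (adjusted p = 5.8e-08) and, in CALDOX, -0.56 ± 0.05 (adjusted p = 5.9e-06). POLA1, the polymerase subunit, read 9.70, 9.66 and 9.66 untreated, 9.29, 9.40 and 9.36 at 24 h, 8.82, 8.94 and 9.03 at 48 h, 9.42, 9.51 and 9.48 in untreated CALDOX and 8.96, 8.89 and 9.06 in treated CALDOX. These arrays show the same order of groups as PRIM1, with changes of -0.32 ± 0.07 (limma adjusted p = 0.0042) and -0.75 ± 0.07 (adjusted p = 5.6e-07). PRIM2, the regulatory subunit, read 8.82, 8.66 and 8.57 untreated, 8.43, 8.57 and 8.62 at 24 h and 7.98, 8.13 and 8.48 at 48 h. The spread inside each group was wider here, and in CAL51 only the change at 48 h against untreated passed (-0.49 ± 0.11, limma adjusted p = 0.0041). In CALDOX PRIM2 read 8.45, 8.68 and 8.47 and then 7.95, 7.92 and 8.10, a change of -0.54 ± 0.11 (adjusted p = 0.0041). POLA2, the remaining subunit, changed by -0.52 ± 0.09 at 48 h, and its dimmer probe sets gave -0.15 and -0.12 with no call.

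The members that encode polymerases extending the strands fell together. All 4 (POLD1 and POLD3 of polymerase delta, POLE and POLE2 of polymerase epsilon) passed at 48 h, with a median of -0.59. They passed in CALDOX as well, with a median of -0.38. Other subunits of these polymerases were measured outside the list, and 1 of them, POLE4 of polymerase epsilon, rose at 48 h. POLE2, the second subunit of polymerase epsilon, had the largest fall among the 4 members. It read 9.77, 9.74 and 9.75 untreated, 9.52, 9.55 and 9.53 at 24 h, 8.76, 8.86 and 8.94 at 48 h, 9.75, 9.74 and 9.66 in untreated CALDOX and 9.13, 9.13 and 9.16 in treated CALDOX. The 2 untreated groups overlap, and each treated group stands clear of its own control. POLE2 changed by -0.21 ± 0.06 at 24 h (limma adjusted p = 0.021), -0.90 ± 0.06 at 48 h (adjusted p = 1.5e-08) and -0.58 ± 0.06 in CALDOX (adjusted p = 7.1e-06).

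POLD3, an accessory subunit of polymerase delta, read 9.49, 9.47 and 9.43 untreated, 9.25, 9.12 and 9.29 at 24 h, 8.81, 8.87 and 8.88 at 48 h, 9.71, 9.73 and 9.73 in untreated CALDOX and 9.38, 9.39 and 9.32 in treated CALDOX. CALDOX started higher than CAL51 (0.26 ± 0.06, limma adjusted p = 0.0021), so treated CALDOX still sat close to untreated CAL51, although drug lowered it in both lines. The higher level in CALDOX rests on this probe set: the other one, at a mean of 7.48, gave -0.13 for the same comparison. POLE, the catalytic subunit of polymerase epsilon, had the smallest fall of the 4 and read 9.52, 9.40 and 9.51 untreated, 9.30, 9.27 and 9.31 at 24 h, 9.03, 8.92 and 8.93 at 48 h, 9.38, 9.35 and 9.44 in untreated CALDOX and 9.10, 9.18 and 9.07 in treated CALDOX. Its 24 h arrays all lie below the untreated ones, but the change of -0.19 ± 0.06 did not pass (limma adjusted p = 0.052), and at 48 h it was -0.52 ± 0.06 (adjusted p = 7.4e-06). POLD1, the catalytic subunit of polymerase delta, fell in CAL51 at 24 h (-0.28 ± 0.07) and at 48 h (-0.57 ± 0.07).

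The clamp and its loader parted company. PCNA is the ring that holds polymerases on DNA and also a known p53 target. RFC2 to RFC5 encode 4 subunits of the complex that opens it. PCNA read 12.63, 12.48 and 12.54 untreated, 12.76, 12.70 and 12.91 at 24 h and 12.50, 12.52 and 12.63 at 48 h. The 24 h arrays lie above both other groups, which overlap. PCNA rose by 0.25 ± 0.06 at 24 h (limma adjusted p = 0.023) and was at 0.00 ± 0.06 at 48 h (adjusted p = 0.98, 95% interval -0.13 to 0.14). In CALDOX it read 12.60, 12.65 and 12.58 on untreated arrays and 12.57, 12.58 and 12.61 on treated ones (-0.02 ± 0.06, adjusted p = 0.93), with overlap. The call of the 24 h rise was lost under 6 of 25 other settings, without a change of sign, among them those without untreated CAL51 replicate 2 or 3 and without CAL51 24 h replicate 1 or 3. All 4 of these loader subunits fell at 48 h. RFC5 read 10.17, 10.24 and 10.09 untreated, 9.89, 9.73 and 9.91 at 24 h, 9.48, 9.40 and 9.53 at 48 h, 10.16, 10.34 and 10.21 in untreated CALDOX and 9.79, 9.77 and 9.84 in treated CALDOX. Its 3 CAL51 groups stand in steps without overlap, down -0.70 ± 0.07 by 48 h (limma adjusted p = 2.2e-06), and both untreated lines overlap. RFC4 read 11.31, 11.34 and 11.33 untreated, 10.87, 10.97 and 10.96 at 24 h, 10.65, 10.62 and 10.71 at 48 h, 11.27, 11.34 and 11.23 in untreated CALDOX and 10.87, 10.86 and 10.92 in treated CALDOX. It had the largest 24 h fall of the loader in CAL51 (-0.39 ± 0.05, limma adjusted p = 0.00018) and nearly the same one in CALDOX (-0.40 ± 0.05, adjusted p = 0.00015). At 48 h RFC2 fell by 30.4% and RFC3 fell by 32.3%.

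Genes for strand processing and the single-strand binding protein RPA had the smallest median fall among the replication enzymes. All 5 (FEN1, LIG1 and RPA1 to RPA3) passed at 48 h, with a median of -0.33, and 1 at 24 h. FEN1, the nuclease that trims Okazaki fragments, read 11.37, 11.13 and 11.29 untreated, 11.12, 10.98 and 11.23 at 24 h, 10.69, 10.52 and 10.81 at 48 h, 11.05, 11.27 and 11.25 in untreated CALDOX and 10.87, 10.86 and 10.81 in treated CALDOX. Its 24 h arrays overlap the untreated ones and its 48 h arrays do not (-0.59 ± 0.09, limma adjusted p = 0.00015). RPA3, the smallest RPA subunit, read 10.68, 10.71 and 10.67 untreated, 10.41, 10.46 and 10.47 at 24 h, 10.31, 10.24 and 10.29 at 48 h, 10.83, 11.00 and 10.89 in untreated CALDOX and 10.56, 10.55 and 10.55 in treated CALDOX. It stepped down without overlap in CAL51 (-0.24 ± 0.06 at 24 h, limma adjusted p = 0.01, and -0.41 ± 0.06 at 48 h, adjusted p = 4.8e-05) from a starting level that was higher in CALDOX. LIG1, the ligase that seals the fragments, read 9.36, 9.45 and 9.28 untreated, 9.39, 9.35 and 9.46 at 24 h, 9.03, 9.01 and 9.17 at 48 h, 9.61, 9.68 and 9.73 in untreated CALDOX and 9.43, 9.53 and 9.39 in treated CALDOX. Its 24 h arrays overlap the untreated ones, its 48 h arrays lie below (-0.30 ± 0.07, limma adjusted p = 0.0039), and untreated CALDOX is the highest group (0.31 ± 0.07 against CAL51, adjusted p = 0.0019). RPA1 and RPA2 changed by -0.30 ± 0.06 and -0.33 ± 0.09 at 48 h, and the call of RPA2 was lost without untreated CAL51 replicate 1 and without CAL51 48 h replicate 1 or 2.

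Nucleotide supply was split as well. Thymidine kinase (TK1) and both subunits of ribonucleotide reductase (RRM1 and RRM2) fell at 48 h, and thymidylate synthase (TYMS) did not. TK1 read 10.99, 11.18 and 11.14 untreated, 10.86, 10.94 and 10.88 at 24 h, 10.46, 10.36 and 10.54 at 48 h, 10.95, 10.99 and 10.92 in untreated CALDOX and 10.56, 10.67 and 10.65 in treated CALDOX. All treated arrays of a line lie below its untreated ones, although the 24 h change in CAL51 (-0.21 ± 0.07) did not pass (limma adjusted p = 0.053) and that at 48 h did (-0.65 ± 0.07, adjusted p = 2.4e-06). RRM2, the subunit whose level sets the enzyme's activity in S phase, read 12.88, 12.96 and 12.89 untreated, 12.71, 12.80 and 12.72 at 24 h, 12.37, 12.35 and 12.34 at 48 h, 12.84, 12.80 and 12.78 in untreated CALDOX and 12.41, 12.43 and 12.42 in treated CALDOX. It fell by 32% at 48 h (-0.56 ± 0.05, limma adjusted p = 9.5e-07) and fell by 23.5% in CALDOX (-0.39 ± 0.05, adjusted p = 0.00012), with no overlap in either. RRM1 changed by -0.46 ± 0.11 at 48 h, with more spread between its arrays.

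TYMS, which makes thymidylate and is the target of fluorouracil, read 13.41, 13.43 and 13.37 untreated, 13.59, 13.48 and 13.58 at 24 h, 13.41, 13.43 and 13.40 at 48 h, 13.54, 13.54 and 13.49 in untreated CALDOX and 13.42, 13.49 and 13.48 in treated CALDOX. Its 24 h arrays lie above the untreated ones (0.15 ± 0.05, limma adjusted p = 0.095), which did not pass, and its 48 h arrays overlap them (0.01 ± 0.05, adjusted p = 0.92, 95% interval -0.10 to 0.12). The probe set of second brightness, at a mean of 11.99, gave 0.25 at 24 h, which passed among all probe sets (limma adjusted p = 0.0087), and -0.01 at 48 h (adjusted p = 0.9). TYMS is also the brightest member, and no saturation check was possible on these values.

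The regulators held both the deepest falls and the only rise at 48 h. Of 8 genes (CCNE1, CCNE2, CDC25A, CDK2, E2F1, E2F2, E2F8 and SLBP), 6 fell, 1 rose and 1 did not pass. CCNE2, cyclin E2, read 9.99, 9.70 and 9.63 untreated, 9.46, 9.18 and 9.66 at 24 h, 8.69, 8.63 and 8.87 at 48 h, 8.44, 8.63 and 8.47 in untreated CALDOX and 8.18, 8.20 and 8.24 in treated CALDOX. Untreated and 24 h arrays overlap, the 48 h arrays lie below both, and both CALDOX groups lie at or below the 48 h level. Its fall at 48 h was 2.06-fold (-1.04 ± 0.11, limma adjusted p = 5.4e-06) and untreated CALDOX was 2.39-fold below untreated CAL51 (-1.26 ± 0.11, adjusted p = 2.8e-07). Its dimmer probe set gave -0.63 and -1.01 for these comparisons. CCNE1, cyclin E1, read 9.14, 9.25 and 9.21 untreated, 9.58, 9.41 and 9.58 at 24 h, 9.54, 9.65 and 9.57 at 48 h, 9.10, 9.18 and 9.14 in untreated CALDOX and 9.33, 9.33 and 9.35 in treated CALDOX. Treated arrays lie above untreated ones in both lines. CCNE1 rose by 0.32 ± 0.06 at 24 h (limma adjusted p = 0.0024) and 0.38 ± 0.06 at 48 h (adjusted p = 0.00021), and changed by 0.20 ± 0.06 in CALDOX (adjusted p = 0.05). The direction rests on this probe set: the other one, at a mean of 6.81, gave -0.13 and -0.09 at 24 h and 48 h, with no call.

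The kinase of both cyclins, CDK2, read 9.96, 9.94 and 9.80 untreated, 9.82, 9.76 and 9.83 at 24 h, 9.73, 9.77 and 9.77 at 48 h, 9.73, 9.85 and 9.75 in untreated CALDOX and 9.38, 9.40 and 9.44 in treated CALDOX. Only the treated CALDOX arrays stand well away from the others. CDK2 fell by 22.6% there (-0.37 ± 0.06, limma adjusted p = 0.00053), while in CAL51 at 48 h it changed by -0.15 ± 0.06 (adjusted p = 0.09, 95% interval -0.27 to -0.02). E2F8, a repressor that is itself switched on by E2F, read 9.70, 9.65 and 9.58 untreated, 9.26, 9.02 and 9.33 at 24 h, 8.56, 8.59 and 8.81 at 48 h, 9.13, 9.21 and 9.19 in untreated CALDOX and 8.32, 8.33 and 8.37 in treated CALDOX. Each treated group lies below its control, and treated CALDOX is the lowest of the 5 groups. It had the largest fall of the list at 24 h in both lines, -0.44 ± 0.08 in CAL51 (limma adjusted p = 0.0021) and -0.83 ± 0.08 in CALDOX (adjusted p = 7.9e-06). E2F1, a transcription factor that activates many of these genes, read 9.42, 9.66 and 9.63 untreated, 9.44, 9.36 and 9.46 at 24 h, 9.30, 9.22 and 9.15 at 48 h, 9.09, 9.23 and 9.20 in untreated CALDOX and 8.98, 9.03 and 8.91 in treated CALDOX. It fell at 48 h (-0.35 ± 0.07, limma adjusted p = 0.002), and untreated CALDOX stood below untreated CAL51 (-0.40 ± 0.07, adjusted p = 0.00043). E2F2 (-0.55 ± 0.09), the CDK-activating phosphatase gene CDC25A (-0.47 ± 0.07) and SLBP (-0.40 ± 0.09), whose protein binds histone mRNA, were also lower at 48 h.

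**Figure D4:**
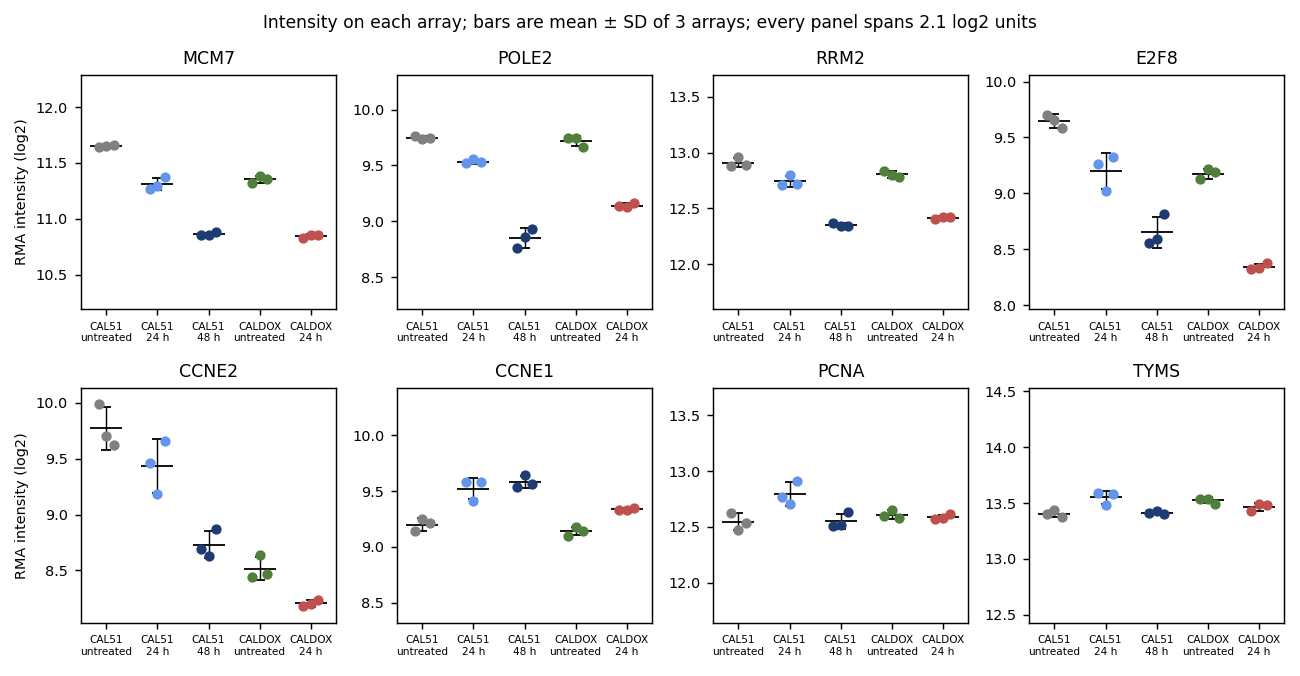
RMA intensity (log2) on each array for 8 members in the 5 groups of 3 arrays; points are arrays, bars the mean ± SD, and every panel spans the same range of log2 units. MCM7, POLE2, RRM2 and E2F8 step down with treatment in both lines, CCNE2 is low in CALDOX from the start, CCNE1 is higher on treated arrays, and PCNA and TYMS are highest at 24 h in CAL51.

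Across the 5 groups, untreated CAL51 had the highest mean for 35 members and untreated CALDOX for 8. CAL51 at 24 h had it for GINS4, ORC6, PCNA and TYMS, and CAL51 at 48 h for CCNE1. The lowest mean was that of CAL51 at 48 h for 29 members and that of treated CALDOX for 16. Untreated CAL51 was lowest for PCNA and TYMS, and untreated CALDOX for CCNE1. The same counts were not made over all genes. The mean over all 48 members ran from 10.42 to 10.47 on the untreated CAL51 arrays, 10.18 to 10.31 at 24 h, 9.86 to 9.96 at 48 h, 10.26 to 10.35 in untreated CALDOX and 9.94 to 9.97 in treated CALDOX. The last group lay close to CAL51 at 48 h, which had another dose and time, so no test was made between them.

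The 17 lower members of untreated CALDOX, beside 11.7% of all genes, included regulators, genes of the loading role and primase genes. Of the 8 regulators 5 were lower: CCNE2 (-1.26), CDC25A (-0.53 ± 0.07, limma adjusted p = 1.1e-05), E2F8 (-0.47), E2F1 (-0.40) and SLBP (-0.30). Of the 12 genes in the loading role 6 were lower, with CDC6 (-0.46 ± 0.09, limma adjusted p = 0.0012) and ORC6 (-0.44) first, then MCM7, MCM5, MCM6 and DTL. CDC45 (-0.47 ± 0.08, limma adjusted p = 0.00022), GINS1, POLA1, POLA2, PRIM1 and RFC3 made up the other 6. Among the 17, the call was lost under 10 of 25 other settings for POLA2, 7 for PRIM1 and 5 each for POLA1, GINS1 and DTL. It was lost under 3 for SLBP and 1 for MCM5. The 4 members higher in CALDOX were LIG1 (0.31), GINS3 (0.29 ± 0.06, limma adjusted p = 0.0012), POLD3 (0.26) and RPA3 (0.22 ± 0.06, adjusted p = 0.0066). Probe sets of RFC3 disagreed: the brightest gave -0.39 and the second -0.29, while a dimmer one gave 0.25 and passed the test the other way. No other member with its brightest probe set called had another called in the opposite direction, in any comparison. Opposite calls beside an uncalled brightest probe set were not counted.

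At 24 h 19 members fell in both lines (1.87% of all genes). They came from each of the 8 roles, nucleotide supply with RRM2 alone. In the loading role they were MCM2, MCM5, MCM6, MCM7, CDC6 and DTL. The others were CDC45 and GINS2, PRIM1 and POLA1, POLD1, POLD3 and POLE2, RFC2, RFC4 and RFC5, RPA3, RRM2 and E2F8. The CAL51 call was lost under 20 of 25 other settings for RRM2, and leaving out any array except CAL51 24 h replicate 2 was enough to lose it. It was lost under 13 for CDC6 and 9 for DTL, among them those without any 1 untreated CAL51 array, and under at most 5 for each of the other 16. In CALDOX a further 17 passed (3.63% of all genes) and in CAL51 1 (2.47%; MCM3, lost without untreated CAL51 replicate 1 or 3 or CAL51 24 h replicate 2), while 11 fell in neither. Passing in one line and not in the other is no difference between them, and the difference itself was tested. With limma, 1 of 48 members passed that test (0.855% of all genes passed lower and 0.576% higher): POLE2, whose change in CALDOX was lower by -0.36 ± 0.08 (adjusted p = 0.028). The sign was nonetheless lopsided, with a lower change in CALDOX for 46 of the 48 members, beside 9570 of all 19775 genes. The median difference was -0.13 against 0.01 for all genes. Members shift together from array to array, so the 46 are not independent counts. Their mean ran from 10.18 to 10.31 within the CAL51 24 h arrays alone. The differences of PRIM2 (-0.40 ± 0.16, limma adjusted p = 0.31) and E2F8 (-0.39 ± 0.12, adjusted p = 0.14) were larger in size than that of POLE2 and did not pass. PCNA differed by -0.27 ± 0.09 (adjusted p = 0.23, 95% interval -0.46 to -0.07) and CCNE1 by -0.13 ± 0.09 (adjusted p = 0.65). The call of POLE2 was lost under 12 of 25 other settings, 10 of which left out 1 array. Of the arrays in the 4 groups compared, only CAL51 24 h replicate 2 and untreated CALDOX replicate 3 could be left out without losing it. The count of members called ran from 0 to 6 over all settings, and 14 were lower at an unadjusted p under 0.05. TYMS, whose brightest probe set did not pass, differed by -0.39 ± 0.08 on the probe set of second brightness (adjusted p = 0.018 over all probe sets).

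**Figure D5:**
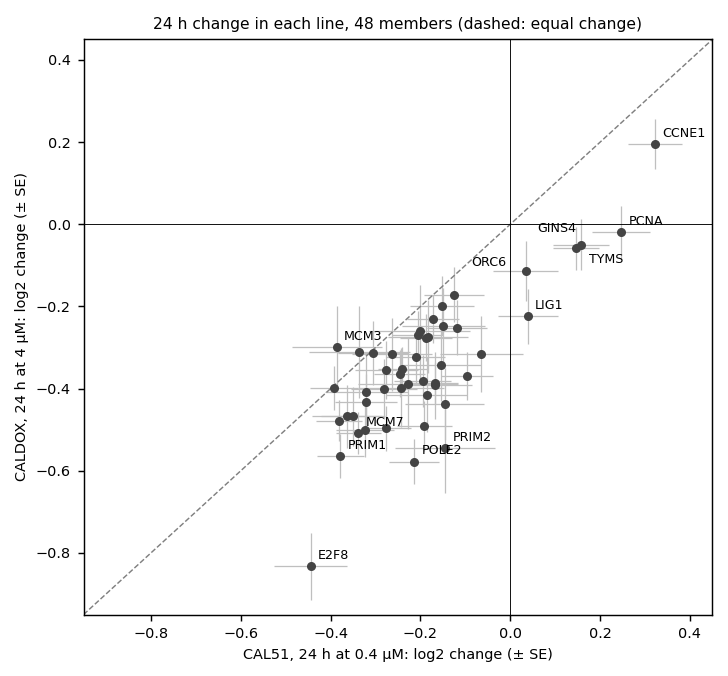
Log2 change at 24 h in CAL51 at 0.4 µM (horizontal axis) and in CALDOX at 4 µM (vertical axis), each against its own untreated arrays, for 48 genes with standard errors; the dashed line marks equal change. All but MCM3 and CCNE2 lie below the dashed line, and CCNE1 is the only gene above 0 in both lines.

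Further replication genes were counted too. Of 32 further replication genes listed by name, 6 fell at 24 h (4.34% of all genes) and 27 at 48 h (11.2%). POLE4, a subunit of polymerase epsilon, rose at 48 h, where 10.5% of all genes were higher. The median of these 32 genes was -0.45. In CALDOX 22 fell and 0 rose, beside 5.5% and 4.82% of all genes. UHRF1, which brings DNA methylation to new strands, changed by -0.97 ± 0.06 at 48 h (limma adjusted p = 1.7e-08) and -0.62 ± 0.06 in CALDOX (adjusted p = 7.9e-06). MCM8, a relative of the helicase subunits used in repair, changed by -0.94 ± 0.14 at 48 h (limma adjusted p = 8.6e-05), and TIPIN, of the fork protection complex, by -0.74 ± 0.08 (adjusted p = 4.5e-06). Genes around nucleotide supply were mixed, with 5 of 11 lower and 2 higher at 48 h, beside 11.2% and 10.5% of all genes. SAMHD1, which breaks down deoxynucleotides, rose by 1.03 ± 0.08 (limma adjusted p = 1.6e-07) and RRM2B, the p53-induced partner of RRM1, by 0.74 ± 0.09 (adjusted p = 2.5e-05). RRM2, the S-phase partner, fell in the same cells.

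The genes that govern the G1 gate did not move as 1 group. Of 28 measured, 8 were lower and 6 higher at 48 h, beside 11.2% and 10.5% of all genes, with a median of -0.09. CDKN1A, the inhibitor, rose by 2.54 ± 0.07 (limma adjusted p = 1.5e-12). FBXW7, part of a ubiquitin ligase that degrades cyclin E protein, rose by 0.72 ± 0.06 (adjusted p = 7.9e-07), and CCND1, cyclin D1, by 0.66 ± 0.11 (adjusted p = 0.00044). LIN9, a subunit of the MuvB complex, fell (-0.81 ± 0.08), as did RBL1 of the retinoblastoma family (-0.78 ± 0.17). Untreated CALDOX already had more CDKN1A than untreated CAL51 (1.35 ± 0.07, limma adjusted p = 3.6e-10), and its rise with drug was smaller (-0.87 ± 0.10 for the difference, adjusted p = 0.00027).

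Genes of G2 and mitosis fell beside the replication genes. All 36 listed were lower at 48 h (11.2% of all genes), with a median of -0.59 where the replication list had -0.57. At 24 h 19 were lower (4.34% of all genes), with a median of -0.26 where the replication list had -0.20. In CALDOX 33 of 36 fell (5.5% of all genes), with a median of -0.43 and -0.36 for the 2 lists. MKI67, the proliferation marker Ki-67, changed by -0.96 ± 0.06 at 48 h (limma adjusted p = 7.3e-09) and CCNA2, cyclin A2, by -0.81 ± 0.07 (adjusted p = 5.2e-07). No test was made between the lists.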

How the data were processed

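The deposited table holds RMA values on the log2 scale for 54675 Affymetrix probe sets and 15 arrays, made by the authors with RMA, a method of background correction, quantile normalization and probe summary, per the submitters' processing notes. No source used here gives the RMA version, and the log base was taken from the range of the deposited values, 3.083 to 14.762. Scanner files were not used here, so detection and saturation were not checked. Of the probe sets, 41097 had 1 gene symbol, 1801 had several and 11777 none, and the 62 control probe sets were left out. For 19775 genes the brightest single-symbol probe set stood for the gene. CDT1 and ORC6 are read by probe sets marked as prone to cross-hybridization (x_at). A single group-means model over the 15 arrays (lmFit and eBayes of limma 3.58.1, run in R 4.3.3) had 10 residual degrees of freedom and 5.397 prior ones. Its 6 contrasts were two-sided, with Benjamini-Hochberg adjustment over all genes and calls at 0.05. The labels name 3 biological samples in each group. Each p-value rests on a variance within groups that was pooled over all groups and moderated over genes, with precision limited by the number of arrays. Alternatives were 10 other settings and 15 fits with 1 array left out. The fitting was also tested on simulated data.

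The members and lists were chosen with earlier results of these data known. Values by array are given, in each of 8 role groups, for the 2 members with the largest and the 1 with the smallest absolute change at 48 h, for members called against the majority, and for PCNA, RRM2, CCNE1, CCNE2, CDT1, GMNN and E2F1. From the other lists, up to 4 called genes with the largest changes could be named. A few listed genes are not reported here. Promoter sequences and gene starts are RefSeq's for GRCh38.p14.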

Additional observations from a re-analysis of the deposited data

Results flagged for a closer look

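For 1 member, 2 p53 targets and 1 further probe set, a test of the difference itself found that CALDOX and CAL51 had not changed alike at 24 h. POLE2 changed by -0.58 ± 0.06 in CALDOX at 4 µM and by -0.21 ± 0.06 in CAL51 at 0.4 µM, a difference of -0.36 ± 0.08 (limma, Benjamini-Hochberg adjusted p = 0.028), and all 3 treated arrays of each line lay below its own untreated ones. The second brightest probe set of TYMS differed by -0.39 ± 0.08 (limma adjusted p = 0.018 over all probe sets), with changes of -0.15 in CALDOX and 0.25 in CAL51. CDKN1A differed by -0.87 ± 0.10 (limma adjusted p = 0.00027) and MDM2 by -0.62 ± 0.13 (adjusted p = 0.028), both having risen less in CALDOX. Line and dose cannot be told apart in any of them. Single arrays far from the rest were not looked for, since each group holds 3 arrays.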

How the results depend on the processing

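The falls at 48 h were the firmest. Of the calls among the 48 genes, 40 of 45 at 48 h were kept under all 25 other settings, 7 of 22 at 24 h, 19 of 35 over the second day, 13 of 21 between the untreated lines, 25 of 36 in CALDOX and 0 of 1 for the difference between the lines. No detection call or signal over background could be had from these values, and 3 arrays a group limit the precision.

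At 24 h in CAL51, 2 members were called higher, and this became 0 with only the compared groups, 1 with arrays centred on their median and 1 with the probe set of median change. The 20 called lower became 7 with only the compared groups and 33 with the interquartile range as a covariate. The 1999 genes called became 870 with only the compared groups and 3200 with array weights. Of all genes called, 57.1% were higher, 69% with only the compared groups and 43.2% with the covariate. At 48 h the 1 member called higher became 0 with the mean of a gene's probe sets and 0 with the probe set of median change. Over the second day the 35 called lower became 21, and the 1920 genes called 565, with only the compared groups; of those genes 45% were higher, and 31.9% with the probe set of median change. In CALDOX the 0 called higher became 1 with only the compared groups, repeated quantile normalization, array weights, the covariate, trended and robust variance, and the dimmest genes left out. The 2041 genes called there became 4961 with array weights. For the difference between the lines, the 1 member called lower became 2 with repeated quantile normalization, 0 with centred arrays, 6 with array weights and 4 with trended and robust variance. The 283 genes called became 426, 1231, 487, 470 and 177 with repeated quantile normalization, array weights, the covariate, trended and robust variance, and the probe set of median change; 40.3% of them were higher, and 50.7% with the covariate and 27.1% with the probe set of median change. Called values that changed sign did so with the probe set of median change, a different probe set of the gene: CCNE1 gave -0.13 at 24 h and -0.087 at 48 h, and POLD3 gave -0.13 between the untreated lines. The cause of the other shifts was not tested.

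With 1 array left out, the count called higher at 24 h ran from 1 to 3 and the count called lower from 13 (without CAL51 24 h replicate 1) to 20, with 1355 to 2117 genes called. At 48 h 42 to 45 were lower, and over the second day 28 to 38, with 1236 (without CAL51 48 h replicate 1) to 1951 genes called. Between the untreated lines 11 (without CALDOX replicate 1) to 17 were lower. In CALDOX 0 to 1 (without CAL51 24 h replicate 2) were higher and 27 to 39 lower, with 1341 (without treated CALDOX replicate 1) to 2338 genes called. For the difference 0 to 2 members were lower, with 161 to 353 genes called, the fewest without treated CALDOX replicate 1.

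The replicate numbers were not taken as pairs. Deviations from group means correlated at -0.46 to 0.46 between arrays of the same number, with a median of 0.00 against 0.01 for other numbers, 8 of 30 pairs were above 0.1, and 5 of 15 arrays correlated best with their own number. With a replicate block the genes called at 24 h numbered 1051 higher and 736 lower, against 1141 and 858, and the members called lower in the difference between the lines numbered 0.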

Other observations

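Within every group, the arrays' order on the whole list followed the spread of their values. In 5 of 5 groups the array with the smallest interquartile range over all probe sets had the lowest mean of the 48 members, and in 5 of 5 the array with the largest had the highest. CAL51 24 h replicate 2, with a range of 2.543, read lowest of its group for 32 members and for 36.5% of all genes. CAL51 24 h replicate 3, with a range of 2.667, read highest for 30 members and for 35.8% of all genes. Untreated CALDOX replicate 2, with a range of 2.647, read highest for 39 members and for 40.4% of all genes. The list is bright, with its median member at the 85.2nd percentile. With the spread as a covariate the count of members called lower at 24 h was 33 in place of 20.

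Several members had probe sets that told different stories. For CCNE1 the brightest gave 0.38 ± 0.06 at 48 h and the dimmer one -0.09. For RFC3 the probe sets gave -0.39, -0.29 and 0.25 between the untreated lines. For MCM4 4 of 5 probe sets lay between -0.95 and -0.65 at 48 h, and the dimmest, at a mean of 7.49, gave 0.04. Of 43 further probe sets of the members, 37 had the sign of the brightest at 48 h and 27 were called with it. Which transcripts these probe sets read was not examined.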
